A study of Mus musculus with 6 samples.

Results

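Immediate early genes and ERK feedback targets were followed in crypts of the mouse small intestine, where stem cells, dividing progenitors and Paneth cells lie. The set was chosen by gene symbol and held 10 of the 17526 genes in the table: the immediate early genes Fos, Jun, Egr1, Ier2 and Dusp1, and the feedback genes Dusp4, Dusp6, Spry2, Etv4 and Etv5. All 10 passed the filter on low counts, which kept 12943 genes. Messenger RNA was sequenced from 3 libraries of floxed control crypts (Fpr2f/f, with the genotype label WT) and from 3 libraries of Fpr2VKO crypts, whose genotype label is an Fpr2 knockout of the intestinal epithelium. The product of Fpr2 is a G protein-coupled receptor that binds formylated peptides. What drives the deletion, and the mice's strain, age and sex, were not stated in the labels used here. No label says whether the 3 libraries of a group are separate mice, so p-values reflect only how far these libraries differ, possibly for technical reasons. Fpr2 was not analysed here, so the genotype labels were not checked on it.

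In the ERK branch of MAPK signalling, receptors pass a signal through RAS, RAF and MEK to the ERK kinases. Immediate early genes are then transcribed within minutes without new protein synthesis, and many of their messages are short-lived. Feedback genes follow: DUSP phosphatases remove the activating phosphates from MAP kinases, Sprouty proteins restrain signalling upstream of RAF, and ETS factors of the PEA3 group carry the response on to further genes. In the crypt, EGF-family signals through this pathway are known to sustain stem cell and progenitor division.

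The upstream sequences of 4 members are printed as a description, and were not tested against the levels. Of these members, Jun and Dusp1 had the smallest p-values of the set, and Fos and Etv5 ran in opposite directions across the libraries. Promoter windows from RefSeq (GRCm38.p6) were searched for 6 of the 10 members. None was searched for Egr1, Ier2, Dusp4 and Etv4, so their motifs are not known here. Each sequence is the 250 bases before the annotated start, 5′ to 3′ on the gene's strand, with capitals on the motif matches named below. They lie at chr12:85473640-85473889 (+ strand, Fos), chr4:95052223-95052472 (- strand, Jun), chr17:26508473-26508722 (- strand, Dusp1) and chr16:22439571-22439820 (- strand, Etv5).
Fos: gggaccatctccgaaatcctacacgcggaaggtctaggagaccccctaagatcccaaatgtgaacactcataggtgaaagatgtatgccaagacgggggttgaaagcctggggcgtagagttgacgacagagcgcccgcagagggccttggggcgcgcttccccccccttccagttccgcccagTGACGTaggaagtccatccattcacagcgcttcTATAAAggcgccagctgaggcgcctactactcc
Jun: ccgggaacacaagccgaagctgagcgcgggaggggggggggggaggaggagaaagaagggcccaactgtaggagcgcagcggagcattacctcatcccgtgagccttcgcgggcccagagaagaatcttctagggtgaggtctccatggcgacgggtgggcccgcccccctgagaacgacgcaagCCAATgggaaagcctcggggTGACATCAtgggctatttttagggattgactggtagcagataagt
Dusp1: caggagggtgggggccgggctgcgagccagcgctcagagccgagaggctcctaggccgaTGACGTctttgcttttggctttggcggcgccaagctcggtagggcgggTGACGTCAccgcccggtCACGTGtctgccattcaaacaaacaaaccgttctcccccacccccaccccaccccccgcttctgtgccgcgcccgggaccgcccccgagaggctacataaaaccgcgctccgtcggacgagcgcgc
Etv5: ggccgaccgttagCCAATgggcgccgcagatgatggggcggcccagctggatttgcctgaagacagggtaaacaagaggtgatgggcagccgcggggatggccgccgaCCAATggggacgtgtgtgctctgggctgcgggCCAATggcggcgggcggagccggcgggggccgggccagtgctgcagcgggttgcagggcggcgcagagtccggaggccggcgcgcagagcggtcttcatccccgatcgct

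Both strands of each window were searched for 9 motifs. Fos held TGACGT, the core of the cAMP response element (CRE) to which CREB binds, 66 bases before the start, and a TATA box, TATAAA, at 33 bases. Jun held TGACATCA, the AP-1-like site known from its own promoter, 45 bases before the start, and CCAAT at 65 bases. Dusp1 held the full CRE, TGACGTCA, at 143 bases, a further TGACGT at 191 bases and the E-box CACGTG at 126 bases; a full CRE also counts as TGACGT. Etv5 held CCAAT 3 times, at 237, 142 and 110 bases. Of the windows not printed, that of Dusp6 held CCAAT on the reverse strand at 46 bases and that of Spry2 held none of the 9; the window of a further Etv5 start, chr16:22438369-22438618 (- strand), held CCAAT on the reverse strand at 224 bases. Of all 32851 promoter windows of that length in the table, 6.47% held TGACGT, 1.55% TGACGTCA, 2.93% TGACATCA, 12.4% TATAAA, 33.8% CCAAT and 6.02% CACGTG. The AP-1 site TGACTCA (4.46% of all windows), the ETS site CCGGAAG (6.91%) and the CArG box (1.47%), the site of serum response factor, were in none of the 7 windows searched. A match is a description of letters, and a missing one says only that these letters were not in the window.

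No member of the set passed the test between knockout and floxed control. Adjusted over all genes, 0 of 10 passed by edgeR's quasi-likelihood test, and 0 by DESeq2 and by limma-voom. Over all genes tested edgeR called 0.0155%, 2 genes, while DESeq2 called 342 genes and limma-voom 1. The members with an unadjusted p under 0.05 were 2, Jun and Dusp1, both lower in the knockouts, while 13.7% of all genes tested met that mark in either direction and 9.63% on the lower side. The fitted log2 fold change was negative for 7 members (51.9% of all genes) and positive for 3. The median was -0.13, beside -0.01 over all genes tested. It was -0.05 for the immediate early members and -0.19 for the feedback members. Only Dusp1 had groups that did not overlap; 17.3% of all genes did not overlap in either direction and 10.3% with the knockouts lower. With 10 members, counts of 2 and 1 are too few beside these background shares to be a result about the set.

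Each library held 11108511 to 16859902 estimated counts in total. Floxed controls 1 and 3 stood apart on lymphocyte transcripts: the 7 T cell markers in the table (of 8 listed) summed to 190.4 and 159.0 CPM (counts scaled by TMM-adjusted library size) there, against 45.8 to 61.1 CPM in the other 4 libraries. The 6 B and plasma cell markers summed to 45.5 and 31.3 CPM, against 7.05 to 12.9 CPM. Of the 8 Paneth cell markers listed, all were lower in the knockouts without overlap, and their summed level was 40053 to 80646 CPM in the floxed controls and 12683 to 22665 CPM in the knockouts. Goblet (8 of 8), enteroendocrine (8 of 8) and tuft cell markers (7 of 7 tested) also had negative log2 fold changes, with medians of -0.72, -0.82 and -1.04. Tuft cell markers were highest in floxed controls 1 and 3, at 238.7 and 215.5 CPM in sum against 71.7 to 118.3 CPM, as were erythroid markers, at 15.8 and 17.3 CPM against 1.502 to 5.18 CPM. Floxed control 2 and knockout 1 stood apart on the 12 clock genes, at 298.3 and 284.7 CPM in sum against 481.9 to 542.5 CPM in the others. Of these, 8 were lower in both libraries of the pair than in each of the others and 1, Arntl, was higher (27.8 and 34.0 CPM against 5.93 to 11.96 CPM). Enterocyte markers were lowest in the same pair (3048 and 2254 CPM against 4397 to 7119 CPM). Cycling cell markers were lowest in floxed controls 1 and 3 (758.8 and 591.0 CPM against 1021 to 1258 CPM). They also differed by group, at 591.0 to 1021 CPM in the floxed controls and 1067 to 1258 CPM in the knockouts. All 8 had positive log2 fold changes (median 0.59). Of them 5 were higher in the knockouts without overlap, beside 905 of 12943 genes tested. The 8 stem cell markers, which define the crypt base, summed to 1368 to 2516 CPM. Endothelial and fibroblast markers were near 0, at summed levels of 2.09 to 5.02 CPM and 2.26 to 5.38 CPM. In bulk libraries such as these, fewer cells of a type and less RNA per cell cannot be told apart.

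**Figure D1:**
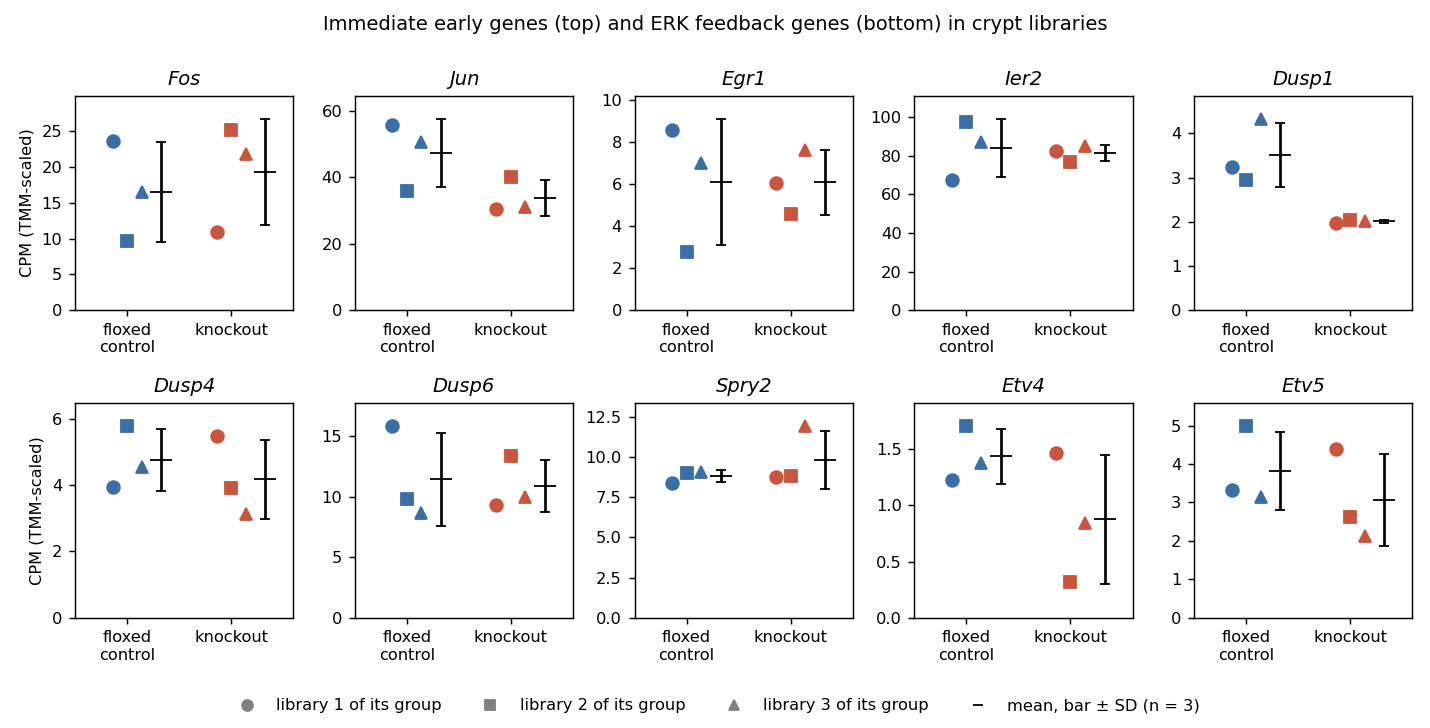
CPM (TMM-scaled) of each of the 10 genes on a linear axis from 0, with 1 point per library (circle, square and triangle for libraries 1, 2 and 3 of a group), and the mean with a bar of ± SD (n = 3). For Dusp1 each floxed control lies above each knockout, at 2.95 CPM or more against 2.04 CPM or less; for the other 9 genes the groups overlap.

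Dusp1 (gene 19252; GRCm38 chromosome 17, 26505591 to 26508472, - strand, 4 exons), the immediate early phosphatase that acts on p38, JNK and ERK, gave 3.23, 2.95 and 4.33 CPM in the floxed controls (libraries 1 to 3) against 1.97, 2.04 and 2.02 CPM in the knockouts (1 to 3). Every knockout lay below every floxed control. The means were 3.50 ± 0.73 and 2.01 ± 0.032 CPM (SD, n = 3), a log2 fold change of -0.79 ± 0.30 (SE; 95% interval -1.45 to -0.14), which did not pass over all genes (adjusted p = 0.272 by edgeR, 0.0224 unadjusted). These are low levels: the values rest on 37, 45 and 44 counts against 35, 38 and 36. The exact Poisson 95% interval of the 35 counts in knockout 1 is 24.4 to 48.7, which is wider than the spread of the 3 knockouts. Intervals of this kind cover counting error only, since the labels name no molecular identifiers. Without floxed control 3 the log2 fold change was -0.58 (unadjusted p = 0.116 by edgeR). The unadjusted p was also over 0.05 without knockout 1, 2 or 3, at 0.0545, 0.0727 and 0.0579 by edgeR. Over 16 other settings the adjusted p ran from 0.0983 to 0.873.

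Jun (gene 16476; chromosome 4, 95049036 to 95052222, - strand, 1 exon), a subunit of the AP-1 transcription factor, gave 55.5, 35.9 and 50.7 CPM in the floxed controls (libraries 1 to 3) against 30.5, 40.1 and 31.0 CPM in the knockouts (1 to 3). Floxed control 2 lay below knockout 2, so the groups overlapped. The means were 47.4 ± 10.2 and 33.9 ± 5.40 CPM (SD, n = 3), with a log2 fold change of -0.48 ± 0.20 (95% interval -0.92 to -0.045). Over all genes Jun did not pass (adjusted p = 0.316 by edgeR, 0.0338 unadjusted). The 2 highest libraries for both Jun and Dusp1 were floxed controls 1 and 3, the libraries with high lymphocyte, tuft and erythroid and low cycling cell markers, whose part in these values was not tested. With those 2 libraries left out, a setting added after the data were seen that leaves 1 control assumed to vary like the knockouts, the log2 fold change was -0.02 for Jun and -0.49 for Dusp1. Without floxed control 1 alone Jun stood at -0.33, and its unadjusted p was 0.131 by edgeR; it was also over 0.05 without floxed control 3, knockout 1 or knockout 3 (0.135, 0.112 and 0.104 by edgeR). Over 16 other settings the adjusted p of Jun ran from 0.0556 to 0.983.

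Fos (gene 14281; chromosome 12, 85473890 to 85477274, + strand, 4 exons), the partner of JUN in AP-1, gave 23.6, 9.64 and 16.4 CPM in the floxed controls (libraries 1 to 3). In knockouts 1, 2 and 3 it stood at 10.9, 25.2 and 21.8 CPM. The spread within each group, 16.6 ± 6.97 and 19.3 ± 7.47 CPM (SD, n = 3), was larger than the difference between them. On the log2 scale the difference was 0.23 ± 0.35 (95% interval -0.55 to 1.002; adjusted p = 0.833 by edgeR). Single libraries set its sign: the value was -0.047 without floxed control 2 and 0.60 without floxed control 1.

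Egr1 (gene 13653; chromosome 18, 34861207 to 34864956, + strand, 3 exons), a zinc finger transcription factor induced through serum response factor, gave 8.56, 2.75 and 6.99 CPM in the floxed controls (libraries 1 to 3). In the knockouts it was 6.04, 4.56 and 7.61 CPM. Floxed control 2 was the lowest of the 6 libraries, with 42 counts (exact Poisson 95% interval 30.3 to 56.8), and floxed control 1 the highest. Fitted over all libraries, the log2 fold change was 0.0068 ± 0.38 (95% interval -0.83 to 0.84; adjusted p = 0.996 by edgeR). Without floxed control 2 it was -0.35, and without floxed controls 1 and 3 it was 1.20 against floxed control 2 alone (unadjusted p = 0.00893 and adjusted p = 0.652 by edgeR). Over 16 other settings its adjusted p was never under 0.462.

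Ier2 (gene 15936; chromosome 8, 84661331 to 84662852, - strand, 1 exon), an immediate early gene for a nuclear protein, had the narrowest interval of the set. It gave 67.6, 97.6 and 86.9 CPM in the floxed controls (libraries 1 to 3) against 82.7, 76.7 and 85.0 CPM in the knockouts (1 to 3). The floxed controls spanned the whole range of the knockouts. Its log2 fold change was -0.045 ± 0.17 (95% interval -0.42 to 0.33; adjusted p = 0.942 by edgeR).

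**Figure D2:**
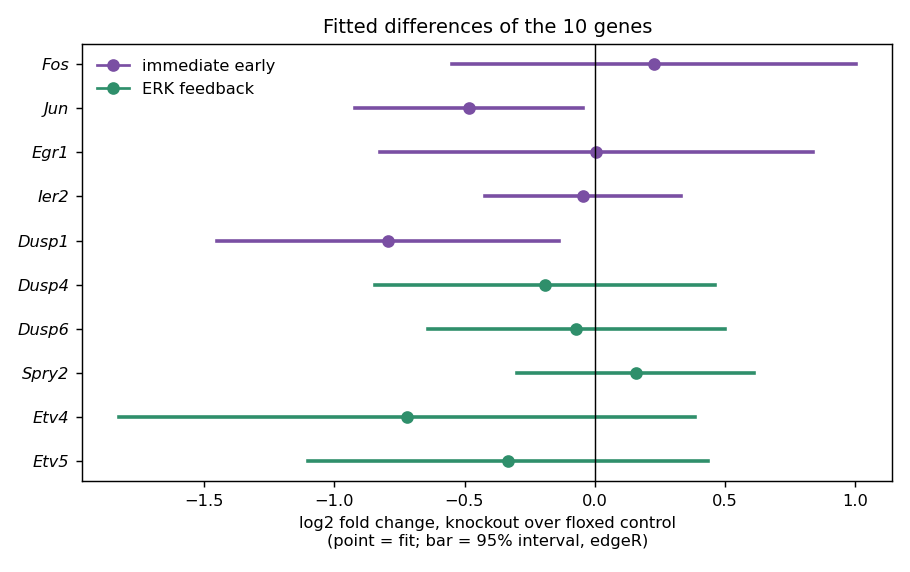
Log2 fold change of knockout over floxed control for each of the 10 genes (point), with its 95% interval from the edgeR fit (bar); immediate early genes are purple and ERK feedback genes green. The intervals of Jun (-0.92 to -0.045) and Dusp1 (-1.45 to -0.14) lie below 0 before adjustment over all genes, and the other 8 span it.

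Among the feedback phosphatases, Dusp6 (gene 67603; chromosome 10, 99263231 to 99267489, + strand, 3 exons), which is specific for ERK in the cytoplasm, gave 15.8, 9.77 and 8.67 CPM in the floxed controls (libraries 1 to 3) against 9.31, 13.3 and 9.96 CPM in the knockouts (1 to 3). One library of each group, floxed control 1 and knockout 2, lay above the rest. Dusp6 had a log2 fold change of -0.071 ± 0.26 (95% interval -0.64 to 0.50; adjusted p = 0.939 by edgeR), and it was 0.27 without floxed control 1. Dusp4 (gene 319520; chromosome 8, 34807610 to 34819894, + strand, 4 exons), a nuclear phosphatase for ERK and JNK, stood at 3.93, 5.77 and 4.53 CPM against 5.47, 3.92 and 3.13 CPM. Its highest libraries were floxed control 2 and knockout 1. Dusp4 had a log2 fold change of -0.19 ± 0.30 (95% interval -0.84 to 0.46; adjusted p = 0.835 by edgeR), and it was -0.43 without knockout 1 and -0.010 without floxed control 2.

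Spry2 (gene 24064; chromosome 14, 105891947 to 105896819, - strand, 2 exons), a Sprouty inhibitor of receptor tyrosine kinase signalling, was nearly level in 5 libraries. It gave 8.38, 8.98 and 9.06 CPM in the floxed controls (libraries 1 to 3) against 8.75, 8.80 and 11.9 CPM in the knockouts (1 to 3). Only knockout 3 lay above the floxed controls. This left a log2 fold change of 0.16 ± 0.21 (95% interval -0.30 to 0.61; adjusted p = 0.799 by edgeR), and it was -0.0027 without knockout 3.

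The PEA3-group factors Etv4 and Etv5, ETS transcription factors that ERK signalling induces, were the lowest members per transcript length. Etv5 (gene 104156; chromosome 16, 22381313 to 22439570, - strand, 13 exons) gave 3.32, 4.98 and 3.15 CPM in the floxed controls (libraries 1 to 3) against 4.401, 2.63 and 2.13 CPM in the knockouts (1 to 3). Floxed control 2 and knockout 1 were its highest libraries. Etv5 had a log2 fold change of -0.33 ± 0.35 (95% interval -1.10 to 0.44; adjusted p = 0.733 by edgeR); without knockout 1 it was -0.69, and without floxed control 2 it was -0.078. Etv4 (gene 18612; chromosome 11, 101769747 to 101785310, - strand, 13 exons) stood at 1.22, 1.705 and 1.38 CPM against 1.47, 0.322 and 0.840 CPM. Knockout 2 held only 6 counts of it (exact Poisson 95% interval 2.20 to 13.1 counts), and knockout 1 lay within the range of the floxed controls. Etv4 had a log2 fold change of -0.72 ± 0.50 (95% interval -1.83 to 0.38; adjusted p = 0.574 by edgeR), with -0.32 without knockout 2 and -1.31 without knockout 1 (unadjusted p = 0.0375 by edgeR). For both factors a fall by 1 on the log2 scale lies inside the interval, so these values leave room for such a change.

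**Figure D3:**
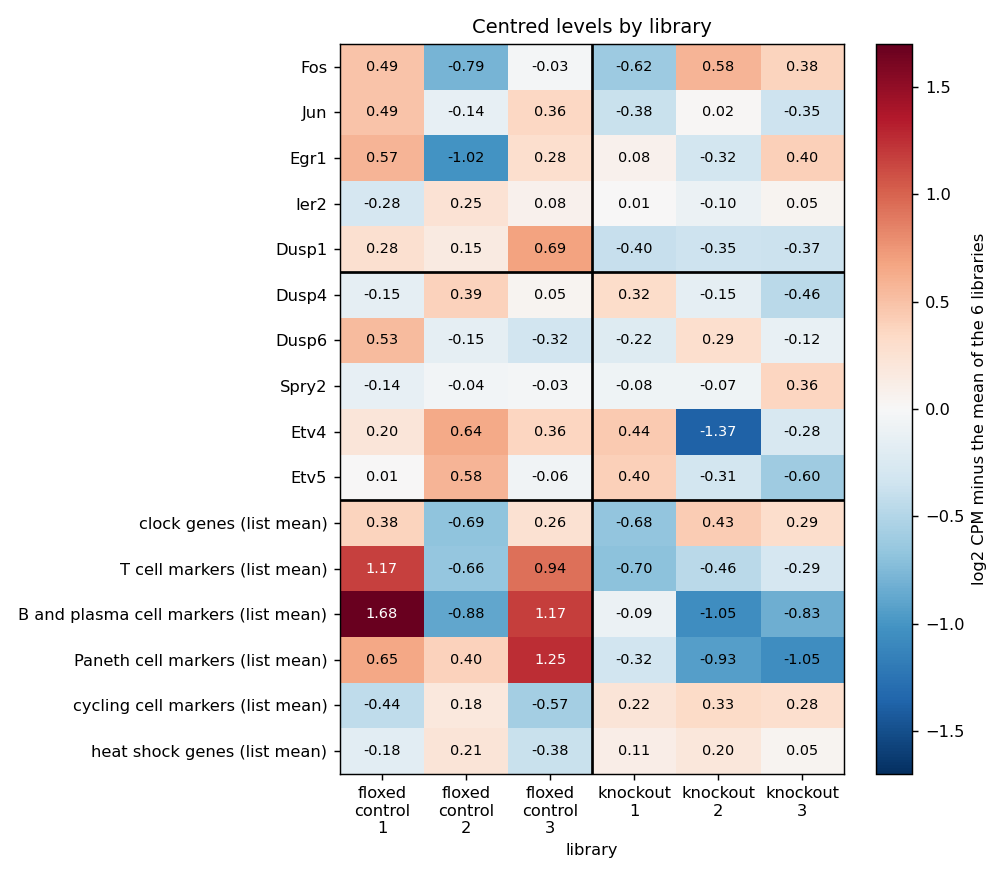
Log2 CPM minus the mean of the 6 libraries (colour and printed value) for the 10 genes, and for 6 gene lists as the mean of their members, by library (columns). Fos is low in floxed control 2 (-0.79) and knockout 1 (-0.62), where the mean of the clock genes is low too (-0.69 and -0.68), and Etv5 is high there (0.58 and 0.40).

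Across the 6 libraries the members did not move as one block. The immediate early members, as a mean of centred log2 CPM, stood at 0.31, -0.31 and 0.28 in the floxed controls (libraries 1 to 3) and at -0.26, -0.035 and 0.022 in the knockouts. The feedback members stood at 0.092, 0.28 and -0.001 against 0.17, -0.32 and -0.22. Floxed control 2 was the lowest library for the immediate early mean and the highest for the feedback mean.

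Floxed control 2 and knockout 1, the pair that stood apart on clock genes, held the lowest values of Fos and the highest values of Dusp4, Etv4 and Etv5. This pattern was picked out after the values were seen and has no test. Fos was 9.64 and 10.9 CPM in that pair and 16.4 to 25.2 CPM in the other 4 libraries, so the gap ran across both groups. Etv5 was 4.98 and 4.401 CPM in the pair and 2.13 to 3.32 CPM in the others. Dusp4 was 5.77 and 5.47 CPM against 3.13 to 4.53 CPM. Between knockout 1 and floxed control 2 alone, Fos differed by 0.17, Etv5 by -0.17 and Dusp4 by -0.074 on the log2 scale; among the other 4 libraries the fitted differences were 0.23, -0.44 and -0.26. Levels of Dusp1 and Jun did not separate the pair from the other 4 libraries. Each library of the pair was still the lowest of its own group, for Dusp1 (2.95 and 1.97 CPM) and for Jun (35.9 and 30.5 CPM). Dusp1 differed by -0.55 within the pair and by -0.89 among the other 4 libraries. Jun differed by -0.24 and -0.58. Egr1 was higher in knockout 1 than in floxed control 2 by 1.096, and had a fitted difference of -0.35 among the other 4; for Etv4 the values were -0.20 and -1.15. The part of the clock gene and enterocyte marker differences in these values was not tested.

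By root mean square difference of centred log2 CPM over the 6 libraries, Dusp4 and Etv5 were the closest pair of members (0.14), followed by Ier2 with Spry2 (0.19) and Jun with Dusp1 (0.25). Fos and Etv4 were the farthest apart (1.13), and the AP-1 partners Fos and Jun differed by 0.50. Outside the set, 9614 genes with an average log2 CPM of at least 3 were compared by the same measure. Osbpl6, Fbxl20, Zfp827 and Pam were among the 5 genes closest to the mean of the immediate early members, at 0.051 to 0.059, beside a median of 0.35 over the genes compared. Txndc11, Mgat2, Acad10, Tbc1d2b and Eif4ebp2 ran closest to the mean of the feedback members, at 0.038 to 0.059, beside a median of 0.30. With 6 libraries such close matches are a description only.

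On a per-length scale (mean CPM per kilobase of transcript over the 6 libraries), Ier2 was the highest member at 54.4, with single libraries from 44.4 to 64.1. Jun followed at 12.7 (9.55 to 17.4) and Fos at 8.50 (4.57 to 11.9). Spry2 was at 4.46 and Dusp6 at 3.98, then Egr1 at 2.00, Dusp4 at 1.63, Dusp1 at 1.39, Etv5 at 0.86 and Etv4 at 0.48. The ranges of neighbours in this order overlapped except between Ier2 and Jun and between Dusp6 and Egr1. The transcript lengths are those of GENCODE M21 models paired with a RefSeq mRNA, from 1.522 kb for Ier2 to 3.975 kb for Etv5.

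**Figure D4:**
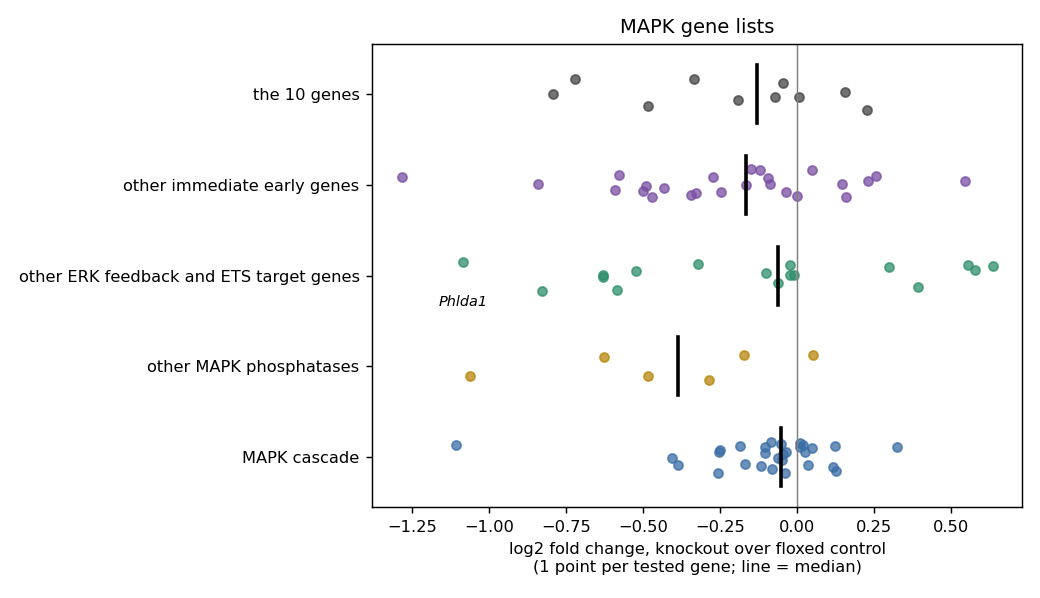
Log2 fold change of knockout over floxed control for every tested gene (1 point each) of the set and of 4 further MAPK gene lists, with the median of each as a line. The medians lie between -0.39 and -0.05, and Phlda1, among the other ERK feedback and ETS target genes, is at -1.08.

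Other immediate early genes gave no call after adjustment. Of 30 listed, 25 were tested, and 0 passed over all genes by edgeR, DESeq2 and limma-voom, which called 2, 342 and 1 of all genes. By edgeR 7 were under 0.05 before adjustment, all lower in the knockouts (7 of 25, beside 9.63% of all genes tested on that side), and the median was -0.17, with 18 negative and 7 positive. Btg2, an antiproliferative gene, had a log2 fold change of -0.59 ± 0.19 and groups that did not overlap, at 80.7, 50.8 and 73.9 CPM against 44.0, 46.1 and 46.2 CPM (adjusted p = 0.204 by edgeR). Klf4, a transcription factor of differentiated epithelium, stood at 138.1, 76.4 and 133.3 CPM against 74.6, 101.8 and 74.3 CPM. As with Jun and Dusp1, floxed controls 1 and 3 were the highest libraries for both. The AP-1 members Junb, Jund and Fosl2 had log2 fold changes of -0.27 ± 0.17, -0.12 ± 0.19 and -0.15 ± 0.17. The orphan nuclear receptor Nr4a1 had -0.49 ± 0.51 and Atf3, a stress-induced bZIP factor, 0.55 ± 0.43. Zfp36, which destabilises AU-rich messages, was level at 83.8 ± 12.7 and 83.8 ± 15.3 CPM (SD, n = 3), while Klf6, Ier5, Ier3 and Srf had 0.15 ± 0.18, 0.16 ± 0.16, -0.25 ± 0.33 and -0.17 ± 0.17. Fosb was too low to test, with 5, 1 and 2 counts in floxed controls 1, 2 and 3 and 10, 12 and 11 counts in the knockouts.

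In floxed control 2, unlike the other controls, lymphocyte markers were at the level of the knockouts. Its clock genes were also low beside the other controls. What part these levels had in the fit without that library was not tested. Leaving out floxed control 2 raised the genes called by edgeR from 2 of 12943 tested to 955 of 13247 tested. Among them were the immediate early genes Klf2, Klf4 and Btg2 (log2 fold changes of -1.53, -0.69 and -0.76), the feedback genes Phlda1 and Dusp2 (-1.21 and -2.21) and the cascade gene Elk3 (-1.43). Dusp2 and Elk3 were named after their values were seen. Klf2, which lymphocytes and endothelium also express, was likewise named after its values were seen; it stood at 2.71, 1.44 and 2.56 CPM against 1.07, 0.751 and 0.896 CPM. No member of the set was called there or in any of the 16 settings run. Beside 955 of 13247 genes, 0 of 10 members is too few to be a result about the set. The listed genes called there are likewise only named.

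Of 20 other ERK feedback and ETS target genes, 17 were tested and edgeR called 0 after adjustment over all genes. Before adjustment 3 were lower and 1 was higher at p under 0.05 (4 of 17, beside 13.7% of all genes in either direction), and the median was -0.06. Phlda1, a pleckstrin homology-like gene induced by growth factor signalling and also known from crypt base cells, was the nearest to a call. It gave 42.4, 30.7 and 40.1 CPM in the floxed controls (libraries 1 to 3) against 19.5, 16.6 and 17.2 CPM in the knockouts (1 to 3), without overlap. The means were 37.7 ± 6.19 and 17.8 ± 1.53 CPM (SD, n = 3), a log2 fold change of -1.08 ± 0.18 (95% interval -1.48 to -0.69). EdgeR gave an adjusted p of 0.0680, so Phlda1 was not called, while DESeq2 gave 7.31e-05. Over the 16 other settings its adjusted p ran from 7.31e-05 to 0.609 and its log2 value from -1.28 to -0.73, the smallest fall without floxed controls 1 and 3. The stem cell markers had negative values too, 8 of 8 with a median of -0.39 (1964 to 2516 CPM in sum in the floxed controls and 1368 to 1879 CPM in the knockouts); their part in the Phlda1 value was not tested.

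Sprouty-family genes outside the set were not called. Spry1 and Spred2, both inhibitors of RAS to RAF signalling, had log2 fold changes of -0.024 ± 0.20 and -0.099 ± 0.15, and Spred1 had 0.39 ± 0.19, with each knockout (16.5 to 18.4 CPM) above each floxed control (10.7 to 15.2 CPM; adjusted p = 0.386 by edgeR). Spry4 was too low to test, at 0 to 5 counts in the floxed controls and 6 or 7 in the knockouts. Dusp5 and Dusp7, phosphatases of ERK in the nucleus and cytoplasm, had -0.63 ± 0.31 and -0.52 ± 0.21, and Errfi1, an inhibitor of EGF receptor, -0.023 ± 0.18. Of the 6 other MAPK phosphatases 0 passed, with a median of -0.39. Dusp3 had -0.63 ± 0.22, Dusp16 -0.29 ± 0.21 and Dusp10 -0.17 ± 0.34. For Dusp3 too each knockout (6.10 to 7.73 CPM) lay below each floxed control (8.59 to 12.1 CPM).

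Kinases, adaptors and nuclear targets of the cascade itself had a median near 0. All 29 listed genes were tested. None was called by edgeR, DESeq2 or limma-voom (0 of 29), which called 2, 342 and 1 of all genes. By edgeR 1 of 29 was under 0.05 before adjustment, lower in the knockouts, beside 9.63% of all genes tested on that side. That gene was Elk3, an ETS factor partnered with serum response factor, which was named after its values were seen (log2 -1.11 ± 0.39; adjusted p = 0.249 by edgeR). Their median was -0.05. Mapk3, which encodes ERK1, stood at 480.7 ± 84.7 CPM in the floxed controls against 403.9 ± 23.4 CPM in the knockouts (SD, n = 3). Map2k1 (MEK1), Braf and Mapk14 (p38 alpha) had log2 fold changes of -0.10 ± 0.14, -0.25 ± 0.27 and 0.12 ± 0.14, and the ETS factor Elk1 -0.39 ± 0.28.

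Heat shock genes, which like immediate early genes respond to stress on cells, were listed as a companion set. Of 10 listed, 9 were tested and edgeR called 0 of them. The median was 0.33, with 6 positive values. By edgeR 2 of the 9 were under 0.05 before adjustment, both higher in the knockouts, beside 529 of 12943 genes tested on that side. With 9 genes tested, a count of 2 is too few to be a result about the list. Their summed level was 2422, 3278 and 2342 CPM in the floxed controls (libraries 1 to 3) and 3197, 3510 and 3711 CPM in knockouts 1, 2 and 3, so floxed control 2 lay among the knockouts. Hspa8, the constitutive chaperone, had 0.30 ± 0.23, and the inducible genes Hspa1a and Hspa1b had -0.37 ± 0.49 and -0.14 ± 0.38 on the log2 scale. Hspa1a and Hspa1b are near-identical copies whose reads may have been split between them, so both values are uncertain. The libraries highest for Jun and Dusp1, floxed controls 1 and 3, were thus the lowest for summed heat shock transcripts. Hspa8 alone gave 1645 to 2305 CPM of these sums, and single genes could differ. Hspa1b was at 4.80 and 2.26 CPM in floxed controls 1 and 3, against 2.18 to 5.02 CPM in the other libraries. What links these levels to Jun and Dusp1 was not tested.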

How the data were processed

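Crypt RNA was sequenced as 50 bp single-end reads, per the labels' protocols, and the submitters' processing notes name mm10; no source used here names the aligner, counter or annotation. The authors deposited estimated counts per gene, not normalised, of which 31.1% to 35.2% per library were not whole; they were rounded here before testing, although the planned test had assumed whole counts.

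All 6 libraries were fitted with edgeR 4.0.16 in R 4.3.3 (filterByExpr, TMM scaling, glmQLFit with robust estimation, glmQLFTest on group), with Benjamini-Hochberg adjusted p under 0.05 over 12943 genes. The biological coefficient of variation was 20.3%. Centred levels are log2 CPM (prior count 2). Alternatives were DESeq2 1.42.0, limma-voom (limma 3.58.1), other scaling and filters, a replicate block and each library left out. Gene coordinates are RefSeq's on GRCm38.p6, the assembly of mm10; 17473 of 17526 gene IDs matched. No exon of a member overlapped another gene's in GENCODE M21. Strand use in counting is not stated. Figures used Python 3.11.15 and matplotlib 3.10.9.

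On simulated counts for 12806 genes in this comparison, edgeR called 14.7% of 75 genes changed 1.5-fold, 50% of 64 changed 2-fold and 93.3% of 60 changed 4-fold. The members, lists and motifs were chosen with earlier results of these data, or the sequences, known. Named genes are the 10 members, fixed anchors of 4 MAPK lists and the heat shock list, and the 5 genes nearest each mean profile, of which 3 genes are not reported here; Klf2, Dusp2 and Elk3 were added after their values were seen.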

Additional observations from a re-analysis of the deposited data

How the results depend on the processing

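No member passed over all genes in any of 16 settings, 13 listed at the outset and 3 added after seeing the data (libraries thinned to the smallest total, floxed controls 1 and 3 left out, and floxed control 2 and knockout 1 left out). Of 160 member values under them, 145 kept their direction and 15 turned; the turned ones are those of Fos, Egr1, Ier2, Dusp6 and Spry2, none called. Deviations from the group means gave no sign of pairing by replicate number. Their correlations were -0.18, -0.27 and 0.068 for same-numbered libraries. For differently numbered ones they ran from -0.14 to 0.38 (floxed control 1 with knockout 2). Deviations within a group of 3 depend on each other, so these values cannot settle whether libraries were paired. With a replicate block 39 genes were called over all genes, and 0 members had an unadjusted p under 0.05.

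Over all genes edgeR called 2, against 0 with DESeq2 size factors or with TMM without the 50 most abundant genes, 1 by limma-voom, 67 without a low-count filter, 342 by DESeq2, 0 to 955 with single libraries left out, 12 without floxed controls 1 and 3, and 920 without floxed control 2 and knockout 1. With single libraries left out, 0 to 2 members had an unadjusted p under 0.05 by edgeR. With single libraries left out, 0 to 3 other immediate early genes, 0 to 2 other feedback and target genes and 0 to 1 cascade genes were called; without floxed control 2 and knockout 1 there were 2, 2 and 1. DESeq2 and the fit without a low-count filter each called 1 other feedback gene, Phlda1.

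The members' median was -0.23 to -0.10 in the fits that leave out 1 library and was -0.30 without floxed control 2 and knockout 1. The immediate early median ran from -0.35 to 0.019 and was -0.35 without that pair. The feedback median ran from -0.43 to -0.018 and was -0.41 without floxed controls 1 and 3. With single libraries left out the log2 fold change of Fos ran from -0.047 to 0.60, that of Egr1 from -0.35 to 0.36, Ier2 from -0.15 to 0.085, Dusp6 from -0.24 to 0.27 and Spry2 from -0.0027 to 0.24. Fos was also -0.0055 without knockout 2. Egr1 was -0.00076 with a filter of 1 CPM in 3 libraries, -0.043 with thinned libraries, -0.18 without knockout 3 and -0.35 without floxed control 2 and knockout 1. Ier2 was 0.072 without that pair, 0.019 without floxed control 3 and 0.00065 without knockout 2. Dusp6 was 0.032 without knockout 1 and 0.21 without floxed controls 1 and 3. The cause was not tested. Fits that leave out libraries test other numbers of genes and fewer samples. Etv4 and Dusp1 rest on 6 to 45 counts per library; with libraries thinned to the smallest total their log2 fold changes were -0.71 and -0.98.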
